A study of Mus musculus with 36 samples.

Results

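The miR-30 family was followed in neonatal mouse kidneys through 7 mature microRNAs, mmu-miR-30a-5p, mmu-miR-30a-3p, mmu-miR-30b-5p, mmu-miR-30c-5p, mmu-miR-30d-5p, mmu-miR-30e-5p and mmu-miR-30e-3p. They were chosen by name from the 1915 mature miRNAs counted in the series. mmu-miR-30c-5p was listed under 2 hairpins, and its 2 rows differed by at most 5 reads in any library. In wild-type kidneys all 7 members, scaled for library composition, were higher at postnatal day 7 (P7) than at P1 in both mouse lines. mmu-miR-30b-5p passed the test in both, where 21.5% of all miRNAs tested passed in the Pkd1 line and 28.3% in the Pkd2 line. With library totals alone 6 of 7 members in the Pkd1 line and 4 of 7 in the Pkd2 line were below their P1 level. No member passed the edgeR test between kidneys with and without Cre at P1, P3 or P7, where 0% to 12.6% of all miRNAs passed. DESeq2 called mmu-miR-30e-3p lower in the Pkd2 line at P7, where it called 21% of miRNAs.

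The series holds 36 small RNA libraries from whole kidneys of mice on a C57BL/6 background, 3 for each of 12 groups. WT mice were Pkd1f/f or Pkd2f/f animals without Cre, and KO mice (Pkd1f/f:HoxB7-Cre or Pkd2f/f:HoxB7-Cre) carried the same floxed alleles together with the HoxB7-Cre transgene, so no group was free of floxed alleles. Kidneys were taken at P1, P3 and P7. HoxB7-Cre is active in the collecting duct lineage, while RNA came from the whole organ and so also from cells outside that lineage. In such bulk RNA, fewer cells of a type and less RNA per cell cannot be told apart. The labels number the 3 libraries of a group without saying that they came from separate animals, so the p-values measure the spread between these libraries, which may be technical. Sex and library batch are not in the labels. Pkd1 and Pkd2 transcripts were not analysed here, and the genotypes rest on the labels.

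MicroRNAs are short RNAs that guide Argonaute proteins to messenger RNAs, mostly through the seed, bases 2 to 8 of the mature strand. Each hairpin precursor can give a mature miRNA from its 5p arm and another from its 3p arm. The 5p arms of the miR-30 family share a seed and so a set of predicted targets. In the kidney the family is known for a protective role in podocytes and, in the frog pronephros, for restraining the transcription factor Lhx1.

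Mature sequences were taken from RefSeq (build GRCm38.p6), which matched 5 of the 7 members; mmu-miR-30b-5p and mmu-miR-30d-5p are given by name only. They are shown because the counts of the members depend on telling near-identical strands apart. Capitals mark the seed, and sequences run 5′ to 3′.
mmu-miR-30a-5p: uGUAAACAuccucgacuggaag
mmu-miR-30e-5p: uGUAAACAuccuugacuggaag
mmu-miR-30c-5p: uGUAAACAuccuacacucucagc
mmu-miR-30a-3p: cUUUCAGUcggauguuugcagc
mmu-miR-30e-3p: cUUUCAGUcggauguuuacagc
The printed members fall into 2 seed groups, GUAAACA for the 5p arms and UUUCAGU for the 3p arms. The 3 printed 5p arms share their leading 12 bases. Counting from 1 at the 5′ end, mmu-miR-30a-5p and mmu-miR-30e-5p differ by the single substitution C13U, and mmu-miR-30a-3p and mmu-miR-30e-3p by G18A. A read with an error at that base could be assigned to the other member of its pair, and the number of mismatches allowed in counting is not given in the sources used here. The split of reads within each pair is therefore uncertain.

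The hairpins lie in 3 pairs on the mouse genome (GRCm38, GENCODE annotation). Mir30a (chr1:23272269-23272339, plus strand) overlaps no other annotated gene, and Mir30c-2 (chr1:23291701-23291784, plus strand) lies 19361 bases further along in an exon of the long noncoding RNA gene Gm27028. Mir30c-1 (chr4:120769534-120769622, minus strand) and Mir30e (chr4:120772606-120772697, minus strand) are 2983 bases apart in introns of Nfyc, which encodes a subunit of the transcription factor NF-Y. Mir30f is annotated over the same span as Mir30e on the opposite strand. Mir30b (chr15:68337415-68337510, minus strand) lies in an exon of the noncoding gene Gm26621, and Mir30d (chr15:68341208-68341289, minus strand) lies 3697 bases away in exons of Gm20732 and Gm37296.

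Library totals ran from 12569939 to 32663566 miRNA reads, with a median of 24008082. mmu-miR-10a-5p and mmu-miR-10b-5p, abundant Hox-cluster miRNAs, together took from 31.4% to 81.0% of reads. Kidney tubule miRNAs were present throughout: mmu-miR-192-5p, a proximal tubule miRNA, was at 3736 normalised CPM or more in every library. Muscle and liver markers set a library apart from its own group by the widest margins in CPM in WT kidneys at P1. In library 1 of Pkd1 WT P1 the muscle miRNA mmu-miR-206-3p was at 57.0 CPM against 1.63 and 0.255. The summed level of the 3 muscle miRNAs reached 1146 CPM there, above mmu-miR-30a-3p (610) and mmu-miR-30e-3p (462). In library 3 of Pkd2 WT P1 the liver miRNA mmu-miR-122-5p was at 341 CPM against 13.1 and 11.3. Smaller spreads were found in KO groups as well. The summed muscle level was 25.5 to 190.5 CPM in Pkd2 KO at P1. At P7 it was 32.5 to 130 in Pkd2 KO and 20.8 to 23.3 in Pkd2 WT libraries. Normalised CPM are reads scaled to a common total with trimmed mean of M values (TMM) factors, computed for each line separately, so levels are not compared between lines.

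The family was among the most abundant in every library. Together the 7 members took from 3.86% to 11.4% of all miRNA reads, with a median of 9.12%. At these depths the widest 95% Wilson interval of such a share spanned 0.0271 percentage points, which covers counting error only. With mmu-miR-10a-5p and mmu-miR-10b-5p left out of the total, the share was 15.0% to 27.6%, with a median of 18.8%. Across the 36 libraries the family share and the miR-10 share had a Pearson correlation of -0.90, which is a description only, because both have the same total. Outside the miR-10 reads the corresponding value was 0.67.

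The members differed widely in reads. mmu-miR-30a-5p ranked 3 to 5 among all miRNAs of a library and made up 42.2% to 65.3% of family reads. mmu-miR-30e-5p ranked 4 to 11, mmu-miR-30c-5p ranked 8 to 20 and mmu-miR-30d-5p ranked 10 to 21. The remaining members were rarer: mmu-miR-30b-5p ranked 35 to 64, mmu-miR-30a-3p ranked 50 to 76 and mmu-miR-30e-3p ranked 60 to 99. The same order, from mmu-miR-30a-5p through mmu-miR-30e-5p, mmu-miR-30c-5p, mmu-miR-30d-5p, mmu-miR-30b-5p and mmu-miR-30a-3p to mmu-miR-30e-3p, was found in 28 of the 36 libraries. The neighbours that changed places were mmu-miR-30c-5p and mmu-miR-30d-5p, with mmu-miR-30c-5p above in 31 libraries, mmu-miR-30b-5p and mmu-miR-30a-3p, with mmu-miR-30a-3p above in 5 libraries, and mmu-miR-30a-3p and mmu-miR-30e-3p, with mmu-miR-30a-3p above in 35 libraries. These are shares of reads. Ligation and counting favour some sequences over others, so they are not molar amounts.

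The make-up of the family was described by the share of each member, with no test. In Pkd1 WT kidneys mmu-miR-30a-5p was 62.9% ± 2.35 of family reads at P1, 52.0% ± 1.82 at P3 and 63.3% ± 1.79 at P7 (SD, n = 3 each). In Pkd1 KO kidneys the values were 63.3% ± 0.137, 52.9% ± 0.439 and 63.2% ± 1.5. The Pkd1 line thus had its lowest share at P3 in both genotypes. In Pkd2 WT kidneys the share was 51.1% ± 1.31 at P1, 47.6% ± 4.69 at P3 and 51.4% ± 1.75 at P7, and in Pkd2 KO kidneys 47.8% ± 2.11, 48.2% ± 0.571 and 50.1% ± 3.86. The second member, mmu-miR-30e-5p, held 15.6% to 21% of family reads as group means in the Pkd1 line and 21.8% to 25.9% in the Pkd2 line. The labels do not say whether the lines were sequenced together, so line and handling cannot be told apart.

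**Figure D1:**
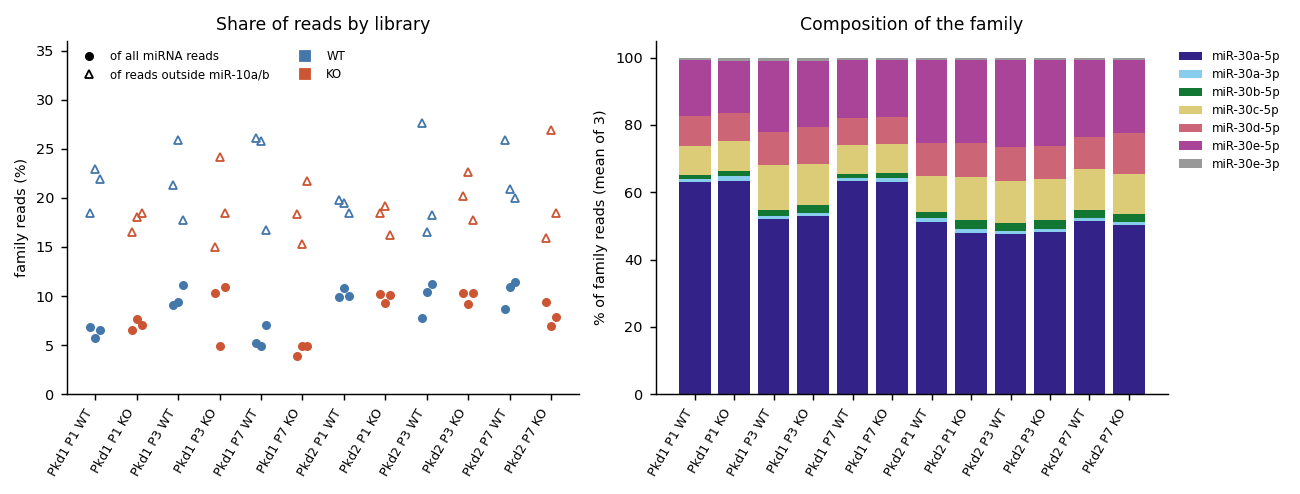
Left, family reads as a percentage of all miRNA reads (filled circles) or of reads outside miR-10a and miR-10b (open triangles), with 1 point per library, WT in blue and KO in orange. Right, mean percentage of family reads taken by each member in each group of 3 libraries. The filled points lie between 3.86% and 11.4%, and mmu-miR-30a-5p is the largest member in every group.

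The age of the kidney was compared first in WT animals. From P1 to P7 all 7 members were higher in both lines under TMM scaling, but not with library totals alone, with a median log2 fold change of 0.55 in the Pkd1 line and 0.74 in the Pkd2 line, against medians of -0.03 and -0.06 over all miRNAs tested. The direction rests on TMM scaling. With library totals alone the median of all miRNAs moved to -0.68 and -0.78 and that of the members to -0.18 and -0.00, so the members stayed above the median miRNA by 0.50 and 0.78 on the log2 scale. A member was called where its adjusted p from the edgeR quasi-likelihood test, Benjamini-Hochberg adjusted over all miRNAs tested in a comparison, was under 0.05. From P1 to P7, 1 of 7 members was called in the Pkd1 line, against 21.5% of the 706 miRNAs tested, and 5 of 7 in the Pkd2 line, against 28.3% of 746. WT libraries of P1 and P7 did not overlap for 3 members in the Pkd1 line, against 33.1% of miRNAs, and for 7 in the Pkd2 line, against 49.9%. With library totals alone no member was called in either line, against 19.3% of miRNAs (132 of 136 lower) and 29.8% (216 of 222 lower).

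mmu-miR-30b-5p, a 5p arm from chromosome 15, rose in both lines. In Pkd1 WT kidneys its level was 729, 649 and 733 normalised CPM at P1, then 1089, 1186 and 1228 at P3, and 1186, 1192 and 1267 at P7. The P1 libraries were all below the later ones, while P3 and P7 overlapped. Its log2 fold change was 0.73 (SE 0.16, adjusted p = 0.0101) from P1 to P3, 0.79 (SE 0.16, adjusted p = 0.00417) from P1 to P7 and 0.06 (SE 0.16, adjusted p = 0.856) from P3 to P7. In Pkd2 WT kidneys the level was 1639, 1643 and 1496 at P1, 2841, 2057 and 2314 at P3, and 2989, 3052 and 3411 at P7. Here the 3 ages did not overlap, and only the change from P1 to P7 passed the test (log2 fold change 0.98, SE 0.16, adjusted p = 0.000331). From P1 to P3 the Pkd2 value was 0.59 (SE 0.15, adjusted p = 0.151). The P1 to P7 call in each line stood in 12 of 13 alternative analyses, which include the 6 fits without 1 library. It was lost with library totals alone (log2 fold change 0.14 and 0.28).

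mmu-miR-30a-5p, the most abundant member, was at 32056, 43253 and 47094 normalised CPM in Pkd1 WT kidneys at P1, 32079, 41849 and 30522 at P3, and 68897, 62559 and 48056 at P7. Every P7 library lay above every earlier one. It rose from P3 to P7 (log2 fold change 0.78, SE 0.21, adjusted p = 0.0253), while its log2 fold change from P1 to P7 was 0.55 (SE 0.21, adjusted p = 0.0681). The rise from P3 to P7 was called in 6 of 13 alternatives, not without P3 library 1 or 3 or P7 library 1 or 2, and its log2 fold change turned to -0.50 under library totals, where the median miRNA was at -1.27. In Pkd2 WT kidneys the level was 42980, 42598 and 39231 at P1, 60168, 40399 and 45879 at P3, and 76133, 66184 and 68204 at P7. Again P7 stood above both earlier ages, and mmu-miR-30a-5p rose from P1 to P7 (log2 fold change 0.75, SE 0.24, adjusted p = 0.0247).

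The 5p members of the remaining hairpins were also higher at P7. mmu-miR-30c-5p, made from hairpins on chromosomes 1 and 4, was at 9103, 8749 and 8308 normalised CPM in Pkd2 WT kidneys at P1 and 19917, 15050 and 15629 at P7, without overlap, and rose by 0.95 on the log2 scale (SE 0.31, adjusted p = 0.0287). mmu-miR-30d-5p, the neighbour of miR-30b, was at 8373, 7555 and 7430 at P1 and 15248, 11883 and 11989 at P7, and rose by 0.74 (SE 0.26, adjusted p = 0.0418). mmu-miR-30e-5p, from the Nfyc intron, did not overlap between these ages in the Pkd2 line, and its log2 fold change was 0.63 (SE 0.32, adjusted p = 0.157). In the Pkd1 line the same 3 members had log2 fold changes of 0.58, 0.41 and 0.63 from P1 to P7, with adjusted p-values of 0.0952, 0.201 and 0.103.

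The 3p members gave smaller values in the Pkd1 line. mmu-miR-30e-3p was at 663, 628 and 527 normalised CPM in Pkd2 WT kidneys at P1, 784, 719 and 715 at P3, and 1002, 989 and 990 at P7. Its 3 ages were separate, and it rose by 0.71 on the log2 scale from P1 to P7 (SE 0.19, adjusted p = 0.0105). In the Pkd1 line its log2 fold change was 0.36 (SE 0.17, adjusted p = 0.14). mmu-miR-30a-3p, the strand opposite the most abundant member, had log2 fold changes of 0.16 (SE 0.16, adjusted p = 0.502) and 0.44 (SE 0.17, adjusted p = 0.0704). Of the calls from P1 to P7 in the Pkd2 line beside mmu-miR-30b-5p, that of mmu-miR-30e-3p stood in 11 of 13 alternatives, those of mmu-miR-30a-5p and mmu-miR-30c-5p in 8 and that of mmu-miR-30d-5p in 5. No test of a difference between lines was made for age.

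**Figure D2:**
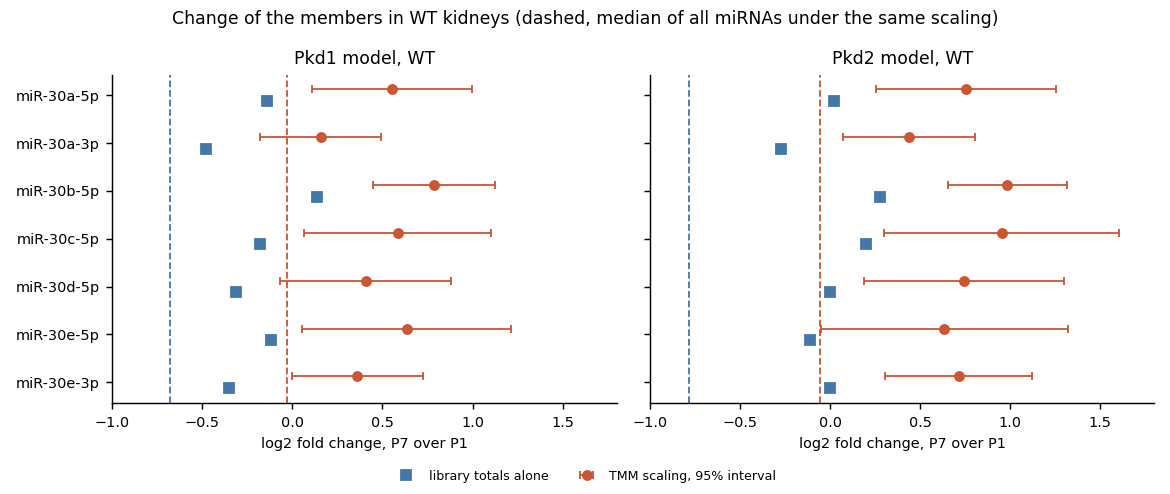
Log2 fold change from P1 to P7 in WT kidneys for each member (rows), under TMM scaling (orange circles with 95% interval) and with library totals alone (blue squares), 3 libraries per age. Dashed lines give the median of all miRNAs under the same scaling. All 14 circles lie right of their dashed line and all 14 squares right of theirs.

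The intermediate ages held fewer calls. From P1 to P3, 1 member was called in the Pkd1 line, against 18.8% of miRNAs tested, and 0 in the Pkd2 line, against 0.268%. From P3 to P7, 1 member was called in the Pkd1 line, against 14.4% of miRNAs, and 0 in the Pkd2 line, against 4.16%. With library totals alone 4 members were called lower from P3 to P7 in the Pkd1 line, against 39.1% of miRNAs, 272 of 276 of them lower. In the Pkd2 line 1 member had an unadjusted p under 0.05 from P1 to P3, against 14.2% of miRNAs, and 4 from P3 to P7, against 24.4%. DESeq2 called 1 member in each, against 2.28% and 9.92% of miRNAs.

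Marker lists, chosen with earlier results of these data known, moved with age too. From P1 to P7, 21.5% of all miRNAs tested were called in the Pkd1 line and 28.3% in the Pkd2 line. Among tubule miRNAs (mmu-miR-192-5p, mmu-miR-194-5p, mmu-miR-215-5p, mmu-miR-802-5p and mmu-miR-204-5p), 4 of 5 rose from P1 to P7 in each line, with median log2 fold changes of 1.56 and 1.43, both larger than the medians of the miR-30 members. The summed tubule level was 4915 to 7192 normalised CPM at P1 and 13232 to 21908 at P7 in Pkd1 WT libraries, and 8170 to 10331 and 18308 to 30946 in Pkd2 WT libraries. Of the 5 epithelial miRNAs of the miR-200 family, 2 rose in the Pkd1 line and 4 in the Pkd2 line. The endothelial miRNA mmu-miR-126a-3p rose in both lines, by 0.49 on the log2 scale in each, with a level of 956 to 1235 normalised CPM at P1 and 1470 to 1524 at P7 in the Pkd1 line and 3221 to 3367 and 4397 to 4787 in the Pkd2 line. Of the 4 mesenchymal miRNAs 1 rose in the Pkd1 line and 1 fell in the Pkd2 line, and of the 3 erythroid miRNAs 1 rose in the Pkd1 line and 0 were called in the Pkd2 line. All 3 leukocyte miRNAs rose in the Pkd1 line and 1 of 3 in the Pkd2 line, and their summed level stayed at or below 164 normalised CPM at P1 and P7 in WT libraries. All 3 muscle miRNAs fell in the Pkd1 line, where WT library 1 at P1 was the high one, and the liver miRNA mmu-miR-122-5p fell in the Pkd2 line, where WT library 3 at P1 was. Without those libraries mmu-miR-30b-5p remained called in both lines, and in the Pkd2 line it was then the only member called, 1 instead of 5. The share of all miRNAs called without those libraries is not given here, so this drop is not read as a result about the members. The part of these cell types in the miR-30 values was not tested.

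KO and WT kidneys were compared at each age in the lines for Pkd1 and Pkd2, the polycystin genes mutated in autosomal dominant polycystic kidney disease. Every KO group and no WT group carried HoxB7-Cre, so loss of the gene and presence of the transgene cannot be told apart. At P1, 0 of 7 members were called in either line, against 0% of miRNAs in the Pkd1 line and 0% in the Pkd2 line. At P3 the count was again 0 of 7 in both, against 0% and 0%. At P7 it was 0 of 7 in the Pkd1 line, against 0.425% of miRNAs, and 0 of 7 in the Pkd2 line, against 12.6%. Of these 42 member comparisons, 1 had an unadjusted p under 0.05, mmu-miR-30e-3p in the Pkd2 line at P7, against 10.6% of all tests in the 6 comparisons and 29% in that comparison. The members' median log2 fold change, KO over WT, was -0.23, -0.19 and -0.32 at P1, P3 and P7 in the Pkd1 line and -0.17, -0.18 and -0.24 in the Pkd2 line, against medians between -0.05 and 0.03 over all miRNAs. DESeq2 called 1 member over the 6 comparisons, again mmu-miR-30e-3p in the Pkd2 line at P7, where it called 21% of miRNAs. In all, 34 of the 42 values were below 0 and 35 below the median miRNA of their comparison. With library totals alone 24 were below 0 and 34 below the median miRNA. These values are not independent, since all members of a comparison share 6 libraries and their scaling.

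At P7, when the comparison called the most miRNAs, mmu-miR-30e-3p came nearest to a call. It was at 1002, 989 and 990 normalised CPM in Pkd2 WT and 591, 908 and 529 in Pkd2 KO kidneys. The groups did not overlap, and KO library 2 stood close to WT. The log2 fold change was -0.56 (SE 0.19, 95% interval -0.96 to -0.15), with an adjusted p of 0.0675, which missed the threshold. DESeq2 gave -0.59 (adjusted p = 0.0203), and the edgeR test with miR-10 left out of the scaling, which called 13.8% of miRNAs, gave -0.59 (adjusted p = 0.0469), so both called it. Over 13 alternatives its adjusted p ranged from 0.00507 to 0.276. In the Pkd1 line the same miRNA was at 726, 590 and 511 in WT and 456, 453 and 517 in KO libraries, and its log2 fold change was -0.36 (SE 0.17, adjusted p = 0.51).

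The level of mmu-miR-30a-5p in the Pkd2 line at P7 was 76133, 66184 and 68204 normalised CPM in WT and 47735, 86824 and 42672 in KO kidneys, so 2 KO libraries lay below every WT library and KO library 2 lay above them all. The log2 fold change was -0.25 (SE 0.23, 95% interval -0.75 to 0.25, adjusted p = 0.53). mmu-miR-30c-5p had the same pattern, with 19917, 15050 and 15629 in WT and 8890, 22712 and 11099 in KO. KO library 2 had a miR-10 share of 74.1%, against 41.1% and 57.4% in the other KO libraries and 42.8% to 66.4% in WT. Without it 3 members were called lower, mmu-miR-30a-5p (log2 fold change -0.67, adjusted p = 0.0255), mmu-miR-30c-5p (-0.79, adjusted p = 0.0492) and mmu-miR-30e-3p (-0.86, adjusted p = 0.00507). Without that library 19% of all miRNAs were called, 48 lower and 94 higher, and the median of all miRNAs was -0.10. Over the 13 alternatives the adjusted p of mmu-miR-30a-5p ranged from 0.0255 to 0.922 and that of mmu-miR-30c-5p from 0.0492 to 0.999. The log2 fold change of mmu-miR-30a-5p ranged from -0.67 to -0.08 and that of mmu-miR-30c-5p from -0.79 to 0.002. mmu-miR-30c-5p kept its sign in 12 of the 13.

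In the Pkd1 line at P7 mmu-miR-30a-5p was at 68897, 62559 and 48056 normalised CPM in WT and 45149, 41118 and 57874 in KO kidneys, and the groups overlapped. Its log2 fold change was -0.32 (SE 0.21, 95% interval -0.76 to 0.13, adjusted p = 0.685). 6 of the 7 members had values below 0 in each line at P7. The exceptions were mmu-miR-30a-3p in the Pkd1 line (0.02, SE 0.16) and mmu-miR-30d-5p in the Pkd2 line (0.13, SE 0.26). At P7 the libraries of WT and KO did not overlap for 0 members in the Pkd1 line, against 16.3% of miRNAs, and for 2 in the Pkd2 line, against 25.2%, namely mmu-miR-30a-3p and mmu-miR-30e-3p.

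At P1 the libraries of WT and KO did not overlap for 4 members in the Pkd1 line, against 19.8% of miRNAs, and for 2 in the Pkd2 line, against 13.5%. Of the 4, mmu-miR-30c-5p, mmu-miR-30d-5p and mmu-miR-30e-5p were lower in KO and mmu-miR-30b-5p was higher (log2 fold change 0.13, SE 0.16), while in the Pkd2 line mmu-miR-30a-5p and mmu-miR-30e-5p were lower. The value farthest from 0 among the 4 was that of mmu-miR-30d-5p in the Pkd1 line, at 4737, 6225 and 6137 normalised CPM in WT and 4465, 4348 and 4241 in KO kidneys, with a log2 fold change of -0.39 (SE 0.22, 95% interval -0.87 to 0.09, adjusted p = 0.587). mmu-miR-30e-5p did not overlap in either line, with log2 fold changes of -0.36 (SE 0.27) and -0.26 (SE 0.32). With library totals alone the Pkd1 values of these members turned to 0.05 and 0.06, where the median miRNA was at 0.38. Marker sums separated WT and KO at P1 as well. For the Pkd1 line the summed tubule level was 7877 to 8510 normalised CPM in KO and 4915 to 7192 in WT, the mesenchymal level 38831 to 45406 and 25676 to 33687, and the erythroid level 2093 to 2431 and 2792 to 3725, none with overlap. In the Pkd2 line the tubule level was lower in KO, at 5079 to 6981 against 8170 to 10331. Their part in the P1 values was not tested. At P3 every interval of a member included 0 in both lines. The libraries of WT and KO did not overlap there for 0 members in the Pkd1 line and 1 in the Pkd2 line. That was mmu-miR-30e-3p, at 784, 719 and 715 normalised CPM in WT and 683, 634 and 646 in KO (log2 fold change -0.18, SE 0.19). The share of all miRNAs without overlap is not given here for P3, so this count is not read as a result about the members.

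**Figure D3:**
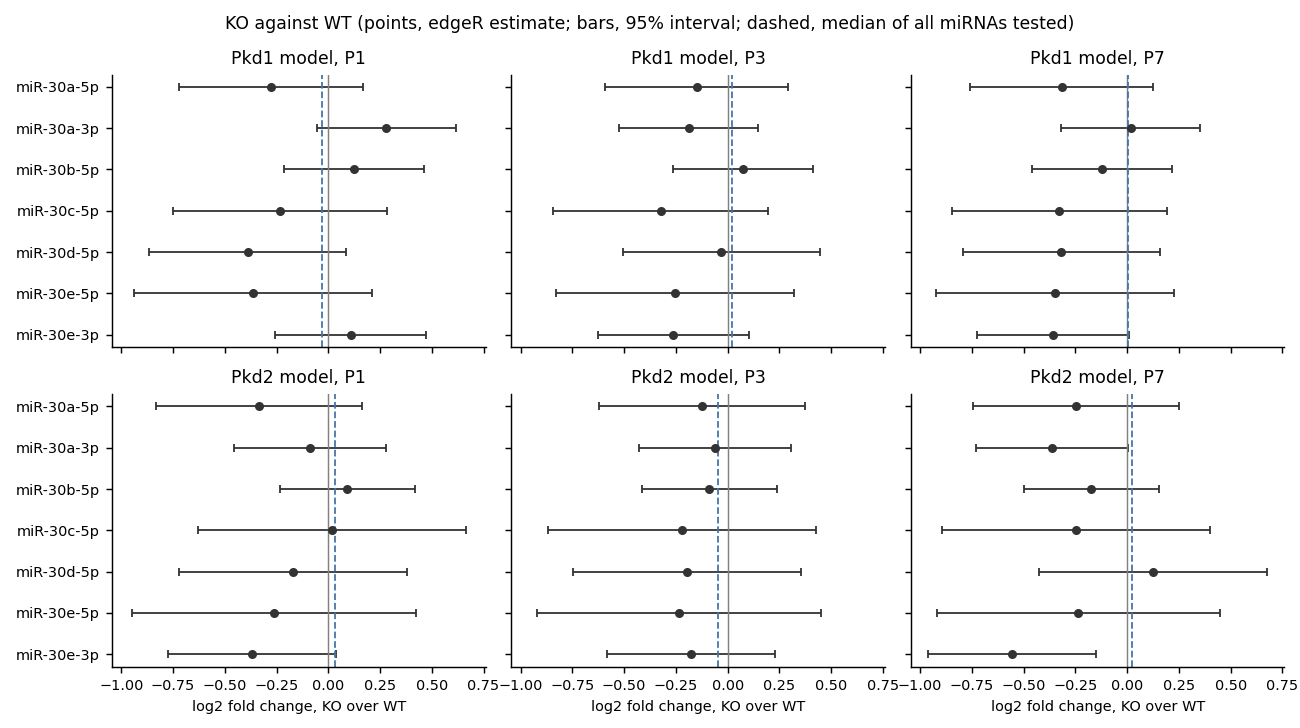
Log2 fold change of KO over WT for each member (rows) at P1, P3 and P7 in the Pkd1 line (top) and the Pkd2 line (bottom), with 95% intervals from 3 libraries per group. The dashed line is the median of all miRNAs tested. The interval leaves out 0 for 1 of the 42 values, mmu-miR-30e-3p in the Pkd2 line at P7.

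**Figure D4:**
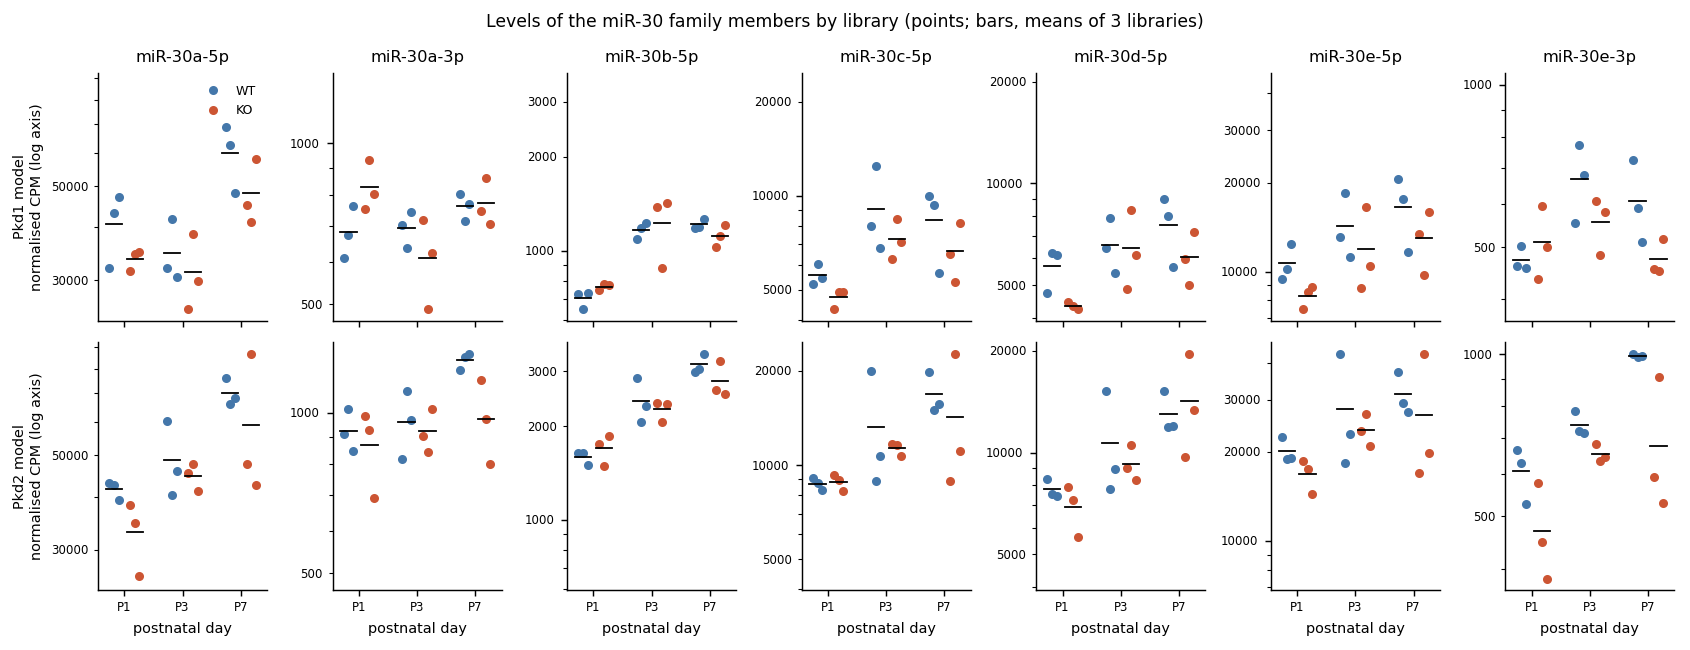
Normalised CPM (log axis) of each member by postnatal day in the Pkd1 line (top) and the Pkd2 line (bottom), with 1 point per library, a bar for the mean of 3 libraries, WT in blue and KO in orange. mmu-miR-30b-5p is lowest at P1 in both lines, and KO library 2 of the Pkd2 line at P7 is the highest point for mmu-miR-30a-5p, mmu-miR-30c-5p, mmu-miR-30d-5p and mmu-miR-30e-5p.

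The same marker lists were read beside the Pkd2 values at P7, where 12.6% of all miRNAs were called. Of the 5 tubule miRNAs, 4 fell in KO kidneys, with a list median of -0.93, and the summed tubule level was 7400 to 15660 normalised CPM in KO against 18308 to 30946 in WT libraries. Of the 5 epithelial miRNAs 2 rose, mmu-miR-141-3p (log2 fold change 0.82, SE 0.20, adjusted p = 0.0163) and mmu-miR-200c-3p (0.87, SE 0.22, adjusted p = 0.0175). The list median was -0.12. The summed epithelial level overlapped, at 7361 to 7741 normalised CPM in KO and 7409 to 8220 in WT libraries. Neither the erythroid, leukocyte, mesenchymal, muscle, liver nor endothelial list held a call in this comparison, although the summed erythroid level was 4276 to 6773 normalised CPM in KO and 2620 to 3266 in WT libraries, without overlap. The endothelial level was 3634 to 4357 in KO and 4397 to 4787 in WT libraries, also without overlap. In the Pkd1 line at P7 no miRNA of any list was called, and the tubule median was -0.40. The summed tubule level there was 10481 to 11350 normalised CPM in KO and 13232 to 21908 in WT libraries, and the endothelial level 1203 to 1377 and 1470 to 1524, both without overlap. The part of tubule, endothelial or blood content in these miR-30 values was not tested.

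Whether the KO effect changed with age or line was tested directly. The difference between the effects at P7 and P1 was called for 0 members in the Pkd1 line, against 0.142% of miRNAs, and for 0 in the Pkd2 line, against 0.536%. The difference between the Pkd1 and Pkd2 effects at P7 was called for 0 members, against 0.387% of miRNAs. No member had an unadjusted p under 0.05 in these 3 tests, against 85 of 706, 126 of 746 and 93 of 775 miRNAs. DESeq2 called 0 members as well, and its share over all miRNAs is not given here for these tests. For mmu-miR-30a-5p the effects of the lines at P7 differed by -0.07 on the log2 scale (95% interval -0.72 to 0.58).

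The share of reads taken by the whole family was compared by exact two-sided permutation tests within line, 12 tests in all with the arm ratios described next. At P7 the share was 4.55% ± 0.599 in Pkd1 KO and 5.73% ± 1.15 in Pkd1 WT kidneys, and 8.07% ± 1.22 in Pkd2 KO and 10.3% ± 1.46 in Pkd2 WT kidneys (SD, n = 3 each). Both lines overlapped between genotypes. The mean difference was -1.73 percentage points (exact permutation p = 0.04, adjusted p = 0.16 over the 12 tests), and it did not pass after adjustment. With the miR-10 reads left out of the total it was -3.12 points (exact permutation p = 0.24). At P1 the difference was 0.16 points (exact permutation p = 0.65) and at P3 -0.50 points (exact permutation p = 0.71). In WT kidneys the share at P7 differed from that at P1 by -0.29 points (exact permutation p = 0.625). Without miR-10 reads in the total the P1 difference became -2.32 points (exact permutation p = 0.035) and the WT age difference 2.41 points (exact permutation p = 0.21), so both turned direction.

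The ratio of 5p to 3p reads was taken for the hairpins with both arms among the members, since it needs no scaling between libraries. For miR-30a the 5p arm had many times the reads of the 3p arm. At P1 the log2 ratio was 5.72, 6.00 and 5.95 in Pkd1 WT and 5.39, 5.22 and 5.44 in Pkd1 KO kidneys. In the Pkd2 line it was 5.56, 5.39 and 5.54 in WT and 5.28, 5.22 and 5.23 in KO. KO libraries were below WT libraries in both lines without overlap. The mean difference was -0.40 on the log2 scale (exact permutation p = 0.005, the smallest this design allows), with an adjusted p of 0.06 over the 12 exact permutation tests, which missed the threshold. Within 1 line the smallest exact permutation p is 0.1, which both lines gave.

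At later ages the miR-30a ratio showed no such separation. The KO difference was -0.00 at P3 (exact permutation p = 0.99) and -0.14 at P7 (exact permutation p = 0.55). In WT kidneys the ratio was 6.42, 6.45 and 5.96 at P7 in the Pkd1 line and 5.99, 5.70 and 5.73 in the Pkd2 line, higher than at P1 by 0.35 on the log2 scale (exact permutation p = 0.01, adjusted p = 0.06). The Pkd1 ages overlapped and the Pkd2 ages did not. For miR-30e at P1 the KO difference was -0.45 in the Pkd1 line, without overlap, and 0.12 in the Pkd2 line, and the exact permutation p over both was 0.265.

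The miR-30a ratio moved with the miR-10 share of a library. Pearson's r was 0.80 over the 18 Pkd1 libraries and 0.87 over the 18 Pkd2 libraries, and for miR-30e it was 0.81 and 0.82. These are descriptions over libraries that include all ages and genotypes. At P1 the miR-10 share was 62.9% to 75.1% in Pkd1 WT and 57.3% to 61.8% in Pkd1 KO libraries, so it was lower in KO together with the ratio. In the Pkd2 line it was 44.3% to 49.7% in WT and 37.6% to 51.8% in KO libraries, which overlapped. The marker sums given above for P1 separated the same libraries, with the tubule level higher in KO in the Pkd1 line and lower in the Pkd2 line. The part of the library's composition in the ratio was not tested.

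**Figure D5:**
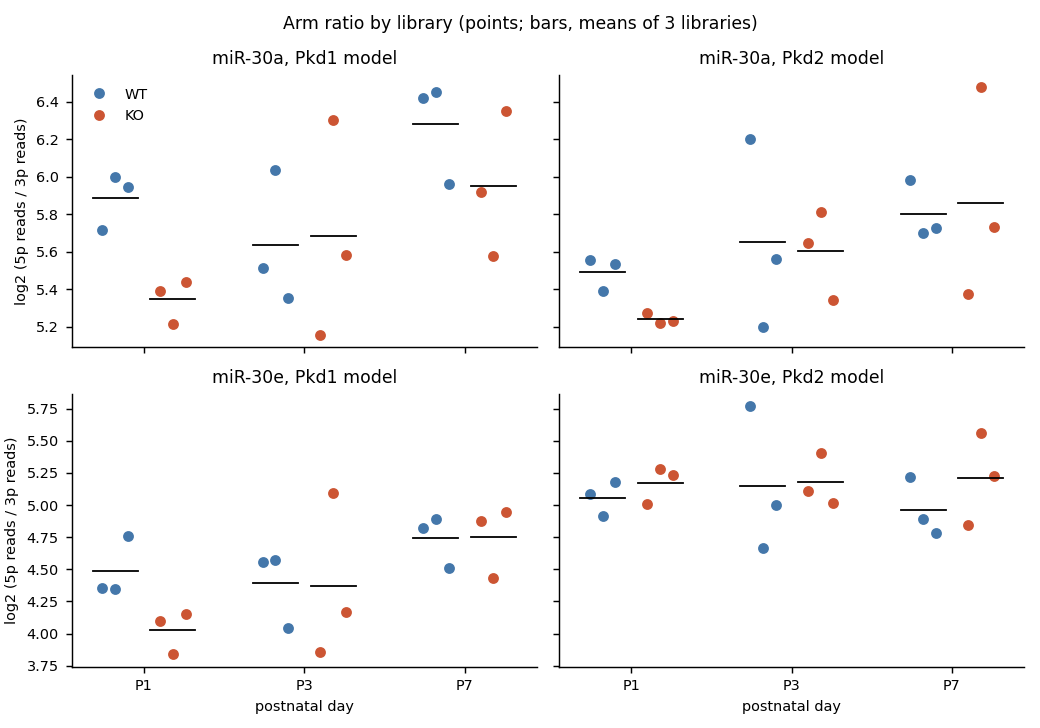
Log2 ratio of 5p to 3p reads for miR-30a (top) and miR-30e (bottom) by postnatal day, with 1 point per library, a bar for the mean of 3 libraries, WT in blue and KO in orange. At P1 the miR-30a ratio is 5.39 or higher in every WT library and 5.22 to 5.28 in Pkd2 KO and 5.22 to 5.44 in Pkd1 KO libraries, each below WT of its own line.

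The other products of these hairpins were rare. mmu-miR-30b-3p ranked 184 to 351, mmu-miR-30c-1-3p 129 to 221, mmu-miR-30c-2-3p 113 to 159 and mmu-miR-30d-3p 116 to 164 in a library. mmu-miR-30f had 52 reads over all libraries and was not tested. In Pkd1 WT kidneys 3 of the 4 tested arms rose from P1 to P3, where 18.8% of all miRNAs were called. The largest change was that of mmu-miR-30c-1-3p (log2 fold change 1.66, SE 0.27, adjusted p = 0.00157), from 33.5 ± 6.92 to 106 ± 21.2 normalised CPM (SD, n = 3 each). From P3 to P7 in that line, where 14.4% of all miRNAs were called, 2 fell, mmu-miR-30c-1-3p by 1.21 and mmu-miR-30b-3p by 0.91 on the log2 scale. mmu-miR-30b-3p thus had -0.15 (SE 0.24, adjusted p = 0.695) from P1 to P7 in the Pkd1 line, while the 5p arm of the same hairpin rose by 0.79. In the Pkd2 line the same pair had 0.10 (SE 0.20, adjusted p = 0.779) for mmu-miR-30b-3p and 0.98 for mmu-miR-30b-5p. The difference between the arms was not tested. Values of these rare arms with library totals alone are not given here. With that scaling the median miRNA was at -1.27 from P3 to P7 in the Pkd1 line. None of these arms was called for KO against WT at P1 or P7 in either line. All miRNAs were called at 0% at P1, and at 0.425% and 12.6% at P7 in the Pkd1 and Pkd2 lines.

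Members did not follow each other equally. For correlations the 36 libraries of both lines were scaled together in 1 fit, so these CPM differ from the levels printed above for each line. Pearson's r of log2 normalised CPM was 0.92 between mmu-miR-30c-5p and mmu-miR-30e-5p, 0.90 between mmu-miR-30c-5p and mmu-miR-30d-5p and 0.88 between mmu-miR-30d-5p and mmu-miR-30e-5p. mmu-miR-30b-5p and mmu-miR-30d-5p, whose hairpins are neighbours, had 0.57. mmu-miR-30a-5p and mmu-miR-30a-3p, which come from 1 hairpin, had 0.53, and mmu-miR-30e-5p and mmu-miR-30e-3p had 0.41. All pairs share libraries, scaling and the difference between lines, so these values describe the libraries only.

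The mean log2 profile of the 5p members was then set against 313 miRNAs at 10 CPM or more on average in the fit of both lines. The most alike over the 36 libraries was mmu-miR-191-5p (Pearson's r 0.91, and 0.85 and 0.97 within the Pkd1 and Pkd2 libraries). It was followed by mmu-miR-671-5p at 0.85, mmu-miR-322-5p at 0.84, mmu-miR-190a-5p at 0.81 and mmu-miR-1839-3p at 0.80. The least alike were mmu-miR-483-3p, from the Igf2 gene, at -0.78, mmu-miR-134-5p at -0.76 and mmu-miR-341-3p at -0.75. Tubule miRNAs lay lower, with 0.37 for mmu-miR-192-5p, 0.34 for mmu-miR-204-5p, 0.67 for mmu-miR-194-5p and 0.71 for mmu-miR-802-5p. Such values were not particular to tubule miRNAs. Markers of the other lists ran from -0.55 for mmu-miR-214-3p to 0.71 for mmu-miR-145a-5p, with 0.67 for mmu-miR-150-5p and 0.62 for mmu-miR-200b-3p. The points share library composition, and no test was made.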

How the data were processed

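Small RNA libraries of whole kidneys were sequenced. Per the study's methods, the authors removed 3′ adaptors, kept reads longer than 17 bases and aligned them with miRDeep2 to the mouse genome and to miRBase release 21, and they deposited raw read counts per mature miRNA and hairpin. The submitters' processing notes name build mm10, CASAVA 1.8.2 and HTSeq. Of 2061 rows the row with the highest total was kept for each of 1915 mature names. Totals were 12569939 to 32663566 reads, so counting error was small beside the spread between libraries. miRNAs with 10 reads or more in at least 3 libraries were fitted per line (18 libraries, 6 groups in 1 model) with edgeR 4.0.16 (TMM, quasi-likelihood F test, R 4.3.3), with Benjamini-Hochberg adjustment over all miRNAs at 0.05. Both lines entered 1 fit for the test between them and for the correlations over all libraries. Family shares and arm ratios were tested by exact permutation of genotype or age within line (SciPy 1.17.1). The script was tested on simulated data. No 2 libraries of a group agreed within sampling noise. Members were named because all 7 belong to the family; for likeness, the 5 highest and 3 lowest correlations were named. Marker lists, like the members, were chosen with earlier results of these data known. Alternatives were library totals, scaling without miR-10, no filter, the lowest-total row, a replicate block, fewer libraries, DESeq2 1.42.0 and leaving out each library in turn.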

Additional observations from a re-analysis of the deposited data

How the results depend on the processing

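With library totals alone the members called from P1 to P3, P3 to P7 and P1 to P7 in Pkd1 WT kidneys numbered 0, 4 (all lower) and 0, against 1 each, and from P1 to P7 in Pkd2 WT kidneys 0 against 5. That scaling called 39.1% of all miRNAs from P3 to P7 in the Pkd1 line, 272 of 276 lower, and 19.3% from P1 to P7. In the Pkd2 line it called 29.8% from P1 to P7. mmu-miR-30a-5p from P3 to P7 in the Pkd1 line then turned to -0.50, and mmu-miR-30d-5p and mmu-miR-30e-3p from P1 to P7 in the Pkd2 line to -0.0013 and -0.00069, while the median of all miRNAs moved to -1.27 and -0.78. With the compared libraries only, 0 members were called from P1 to P3 and 0 from P3 to P7 in Pkd1 WT kidneys, and with no filter 0 from P3 to P7. Shares over all miRNAs are not given here for these settings. DESeq2 called 1 member in each of Pkd2 KO against WT at P7, Pkd2 WT P1 to P3 and P3 to P7. Its shares over all miRNAs were 21%, 2.28% and 9.92%. Scaling without miR-10 called 1 in Pkd2 KO against WT at P7, against 13.8% of miRNAs.

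The family share without miR-10 in the total gave -2.32 points for KO at P1, -3.12 at P7 (exact permutation p = 0.24) and 2.41 for WT age. The cause of these changes was not tested.

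Leaving out each library in turn gave 0 to 3 members for Pkd2 KO against WT at P7 (3 without KO library 2), 1 to 2 for Pkd1 WT P1 to P3 (2 without P3 library 1), 0 to 1 for P3 to P7 (0 without P3 library 1 or 3 or P7 library 1 or 2) and 1 to 5 for Pkd2 WT P1 to P7 (1 without P1 library 3, 2 without P1 library 1 or 2 or P7 library 1). The fit of Pkd2 KO against WT at P7 without KO library 2 called 19% of all miRNAs. The other counts have no such share beside them and are not read as results about the members. The share difference ranged from -0.0015 to 0.31 points at P1 (lowest without Pkd1 WT library 2), -1.06 to 0.46 at P3 (highest without Pkd1 KO library 2), -2.14 to -1.40 at P7 and -0.61 to 0.13 for WT age (highest without Pkd2 P7 WT library 1). At P3 the arm ratio difference ranged from -0.16 to 0.13 for miR-30a and -0.18 to 0.16 for miR-30e. At P7 the share had an unadjusted exact permutation p of 0.07 to 0.08 without any of 6 libraries, Pkd1 KO library 1 and WT library 3, and Pkd2 KO libraries 2 and 3 and WT libraries 2 and 3. The miR-30a ratio at P1 kept its direction in every such fit.

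A replicate block on the library numbers within age and line called 4 members from P1 to P7 in Pkd2 WT kidneys, without mmu-miR-30d-5p (log2 fold change 0.76), and the same number as before in the other 14 comparisons. The share of all miRNAs called with the block is not given here. Same-numbered WT and KO libraries correlated above 0.1 in 7 of 18 pairs (r from -0.48 to 0.51) and 4 correlated best with their own number. With 3 libraries per group this check cannot decide whether the numbers pair the libraries, and no pairing was assumed in the main tests. The paper used littermates as controls, and the labels do not say which libraries came from littermates.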
